A study of Homo sapiens with 402 samples.

Results

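Bisphenols are pairs of phenol rings joined by a bridge, used in plastics and resins. Bisphenol A (BPA) carries an isopropylidene bridge, bisphenol F (BPF) a methylene bridge and bisphenol S (BPS) a sulfonyl bridge, and BPF and BPS are used as substitutes for BPA. The libraries were chosen by their labels: treatment BPA, BPF or BPS, 16 libraries each, 48 of the 402 libraries of the series. MCF10A, a wild-type, non-tumorigenic epithelial line from human breast, grew in multi-well plates, received a chemical the day after plating and was taken for plexWell RNA sequencing after 48 h of exposure, in which each well receives its own barcode. Each bisphenol was given at 0.025, 0.25, 2.5 and 25 µM, with 4 libraries per dose. All 12 groups and the 15 control libraries (treatment Control, dose 0) shared the solvent DMSO, the cell line and the plate 3206-AT, which also held the parabens MPB and PPB (30 libraries). The labels call the 4 libraries of a dose biological replicates but do not say whether they came from separate cultures, so the p-values measure the spread between these wells.

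Bisphenols are best known as weak ligands of the estrogen receptors ESR1 and ESR2, and they have also been linked to the membrane estrogen receptor GPER1, the estrogen-related receptor ESRRG and the aryl hydrocarbon receptor (AhR). As phenols they can be oxidised to reactive quinones. The transcription factor NRF2 responds to such electrophiles by raising genes of quinone reduction, glutathione supply and thioredoxin recycling. MCF10A is commonly described as lacking ESR1, so genes driven by that receptor are not its usual readout.

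The plate was counted over 22301 genes that passed the filter on low counts. Totals ran from 7.39 to 18.9 M counts in the bisphenol libraries and from 7.33 to 17.4 M in the controls. The libraries fell into number sets. Dosed replicates 1 and 2 and controls 17 to 24 formed set A (8 controls, 14.1 to 17.4 M counts), and dosed replicates 3 and 4 and controls 26 to 32 formed set B (7 controls, 7.33 to 12.6 M counts). The bisphenol libraries differed less in depth, at 8.31 to 18.9 M counts in set A and 7.39 to 18.1 M in set B. The labels do not say what ties these replicates to these controls. Set was a term in the main fit, and values within each set are given beside the results they touch. Levels are given in CPM, counts scaled to library size by the TMM method. Basal epithelial markers (KRT5, KRT14, TP63 and 8 others) summed to 3571 to 5087 CPM in the controls and to 3349 to 5443 in the bisphenol libraries. Hormone-responsive luminal markers summed to 25.8 to 39.5 and 21.6 to 48.5 CPM, with PGR at 0 in every library. Of the other cell types, endothelial markers summed to at most 5.96 CPM and adipocyte markers to at most 4.47 CPM in any of these libraries. Leukocyte markers summed to 19.6 to 49.3 CPM in the controls and 15.9 to 46.6 CPM in the bisphenol libraries, with CD3E and MS4A1 at 0, while CD14 had counts in every library (median 32.8 CPM in the controls and 29.1 CPM in the bisphenol libraries). Fibroblast markers summed to 14 to 59.3 CPM and 14.3 to 51 CPM, mostly DCN (median 36.7 and 26.2 CPM). Their part in the results was not tested. Since these are bulk samples, a lower level of a gene in each cell and fewer cells expressing it cannot be told apart.

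ESR1, the nuclear receptor through which estradiol acts in luminal cells, had 128 counts in total over 18 of the 48 bisphenol libraries and 20 counts over 5 of the 15 controls. ESR2 had counts in 23 of the bisphenol libraries. GPER1 had a median of 11.2 CPM in the bisphenol libraries, and ESRRA, a nuclear receptor of energy metabolism, one of 101 CPM. Of the 12 tested receptors linked to bisphenols, 0 were called at 25 µM for any of the 3 compounds, where called means an adjusted p under 0.05 in edgeR's quasi-likelihood test. Over all genes the shares called at that dose were 0.0762% (BPA), 0.126% (BPF) and 0.0224% (BPS), so 0 of 12 is no result about these receptors. GPER1 differed from control by 0.20 ± 0.19 (log2, SE) at 25 µM BPA, by -0.04 ± 0.19 at 25 µM BPF and by -0.11 ± 0.20 at 25 µM BPS.

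Of 16 estrogen receptor target genes, 12 were tested and 0 were called at 25 µM for any bisphenol, beside the same shares over all genes (0.0762%, 0.126% and 0.0224%). GREB1, a cofactor induced by ESR1, was called at 0.25 µM BPA. Its values there were 1.80, 1.42, 0.629 and 0.522 CPM, against 1.07 to 7.98 CPM (median 4.91) in the 15 controls. The difference was -1.98 ± 0.49 (adjusted p = 0.0317), with replicates 3 and 4 below every control and replicates 1 and 2 inside their range. The call was lost in DESeq2, within either set, without any 1 of the 4 libraries, without control 18, 19 or 26 and against the other dosed libraries described below. At 25 µM, GREB1 differed by -0.64 ± 0.40, -1.03 ± 0.41 and -1.05 ± 0.43 for BPA, BPF and BPS, with no call. CTSD, a lysosomal protease and estrogen target, was called lower at 0.025 µM BPS (-0.43 ± 0.10, adjusted p = 0.0174), a call lost in DESeq2, within set B, without replicate 1, 2 or 3 and against the other dosed libraries. Both genes were picked out after their values were seen. The proliferation marker MKI67 had intervals against control of -0.09 to 0.16 (BPA), -0.06 to 0.18 (BPF) and -0.09 to 0.16 (BPS) at 25 µM. The cell-cycle inhibitor CDKN1A had intervals of -0.03 to 0.27, -0.17 to 0.13 and -0.15 to 0.16 in the same order, and neither gene was called.

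Across all genes, the number called against the DMSO controls was not largest at the highest dose for BPA or BPS. BPA had 95 genes at 0.025 µM (14 higher, 81 lower; 0.426% of the genes tested), 95 at 0.25 µM (49 higher, 46 lower; 0.426%), 215 at 2.5 µM (35 higher, 180 lower; 0.964%) and 17 at 25 µM (4 higher, 13 lower; 0.0762%). BPF had 21 (16 higher, 5 lower; 0.0942%), 10 (5 and 5; 0.0448%), 25 (25 higher; 0.112%) and 28 (18 higher, 10 lower; 0.126%) in the same order of dose. BPS had 103 (45 higher, 58 lower; 0.462%), 12 (8 higher, 4 lower; 0.0538%), 3 (1 higher, 2 lower; 0.0135%) and 5 (3 higher, 2 lower; 0.0224%). Single wells weighed on these counts. At 25 µM, BPA had 122 genes without replicate 2 and 27 without control 22, but 2 without replicate 3 and 6 without either replicate 1 or 4. BPF had 8 without replicate 1 and 15 without replicate 2. BPS had 3 without replicate 1 or 3, 12 without replicate 2, 9 without replicate 4, 3 without control 18, 19, 24, 26 or 27 and 8 without control 30. At 2.5 µM, BPA had 113, 90 and 91 without replicates 1, 2 and 4, BPF had 1, 39 and 7 without replicates 1, 3 and 4, and BPS had 1 without any 1 of its replicates. Without the set term the counts at 25 µM were 1 for BPA (ACAT2), 4 for BPF (NQO1, THBD, SLC7A11 and MUC1) and 0 for BPS, and every other call named at that dose was lost without it.

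The counts at the lower doses were as loose. At 0.025 µM, leaving out replicates 1, 2 and 3 of BPA gave 24, 49 and 20 genes, those numbered 1, 2 and 4 of BPF gave 1, 5 and 9, and BPS had 3, 16 and 39 without replicates 2, 3 and 4 and 68 without control 17. At 0.25 µM, BPA had 44, 3 and 29 without replicates 1, 2 and 3 and 62 without control 26. BPF had 1, 6 and 2 without replicates 1, 2 and 3, 2 without control 18 and 23 without control 22, and BPS had 2, 4 and 3 without replicates 1, 2 and 3.

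Several genes called in many of these groups lay on the same side of the controls in the parabens too. They were picked out after their values were seen. GNAS, the stimulatory G protein alpha subunit, had 213 to 454 CPM (median 358) in the controls and 549, 552, 455 and 468 CPM at 2.5 µM BPA, 575, 492, 490.2 and 548 CPM at 2.5 µM BPF and 533, 505, 481 and 496 CPM at 2.5 µM BPS. Its difference from control was above 0 within both sets in 12 of 12 bisphenol groups and 8 of 8 paraben groups and was called in 10 of the 12. CLPTM1L, a membrane protein gene, was likewise above 0 in 12 of 12 and 7 of 8 groups, and MPRIP, a regulator of myosin phosphatase, in 12 of 12 and 8 of 8. S100A4, a calcium-binding protein, was below 0 in 12 of 12 and 8 of 8, and TSC22D3, a glucocorticoid-induced gene, in 12 of 12 and 7 of 8. The groups share the 15 controls, so these counts are not independent.

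For this reason each bisphenol group was also set against other dosed libraries of the plate, the 8 groups of the other 4 chemicals at 0.025 and 0.25 µM, a reference chosen after seeing these values. Against it few calls were left at the lower doses. At 0.025 µM, 0 genes were called for BPA, BPF or BPS (0% each), at 0.25 µM 0 for BPA (0%), 1 for BPF (0.00448%, the iron storage gene FTH1, lower) and 0 for BPS (0%). At 2.5 µM, BPA had 23 genes (2 higher, 21 lower; 0.103%), BPF 5 (all higher; 0.0224%) and BPS 0 (0%). At 25 µM, BPA had 12 (9 higher, 3 lower; 0.0538%), BPF 40 (25 higher, 15 lower; 0.179%) and BPS 20 (13 higher, 7 lower; 0.0897%). Beside the counts of 0, edgeR gave unadjusted p under 0.05 for this many genes: 1338 and 1367 for BPA at 0.025 and 0.25 µM, 1187 for BPF at 0.025 µM, and 1625, 1441 and 1286 for BPS at 0.025, 0.25 and 2.5 µM. This reference was run in edgeR alone. The genes called under both references numbered 20 for BPA at 2.5 µM, 4 for BPA at 25 µM, 1 for BPF at 0.25 µM, 15 for BPF at 25 µM, 2 for BPS at 25 µM and 0 in the other groups.

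**Figure D1:**
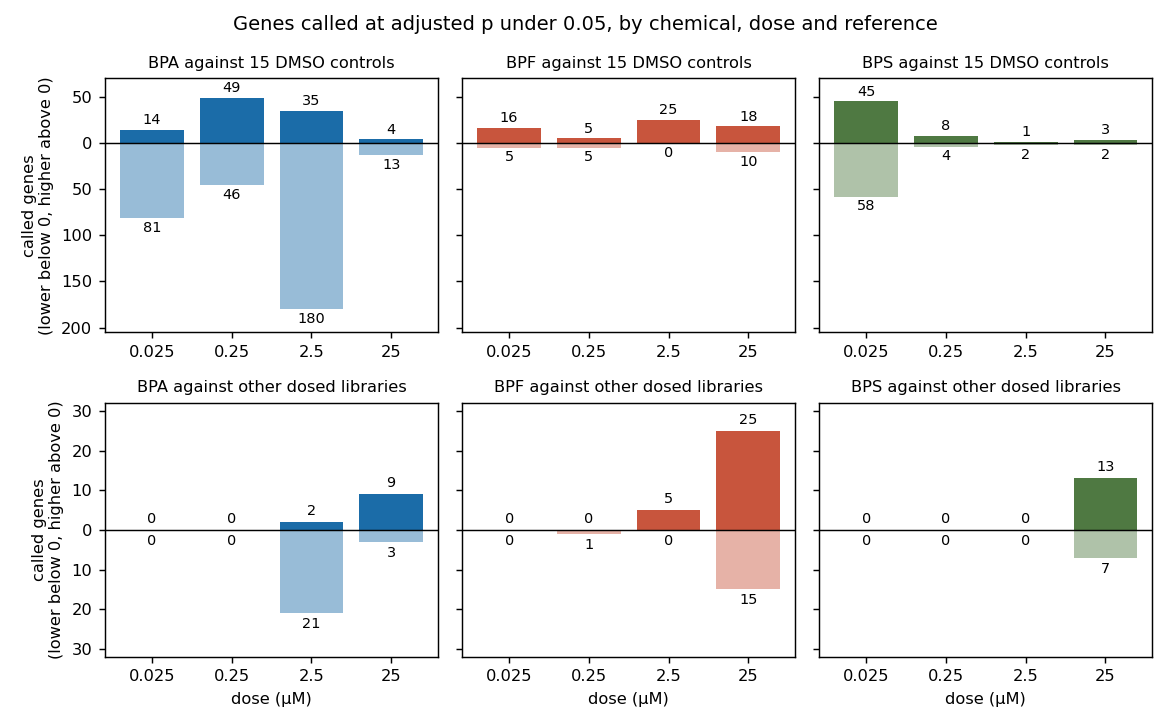
Genes called at each dose (x axis, µM), higher above 0 and lower below 0, for BPA, BPF and BPS against the 15 DMSO controls (top) and against other dosed libraries of the plate (bottom). The top counts peak at 215 for BPA at 2.5 µM; the bottom counts are at most 1 at 0.025 and 0.25 µM and reach 40 for BPF at 25 µM.

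Of the 18 genes that rose at 25 µM BPF, 6 were NRF2 targets. NQO1 (chr16:69709401-69726560 in GRCh38.p14), the quinone reductase, had 1003, 999, 885 and 929 CPM in the 4 libraries, against 664 to 824 CPM (median 756) in the 15 controls. The 4 BPF libraries lay above every control. The log2 difference was 0.35 ± 0.05 (SE; adjusted p = 8.76e-08), and it was 0.34 within set A and 0.35 within set B. BPA at 25 µM had 850.2, 921, 752 and 738 CPM and BPS 924, 850.3, 827 and 706 CPM. Each of these compounds had libraries inside and above the control range, with differences of 0.12 ± 0.05 and 0.14 ± 0.05 that were not called.

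TXNRD1 (chr12:104215779-104350307), which recycles thioredoxin, had 402, 452, 354 and 335 CPM at 25 µM BPF and 389, 382, 349.5 and 291 CPM at 25 µM BPA, against 213 to 336 CPM (median 297). It rose by 0.44 ± 0.07 (log2, SE) with BPF (adjusted p = 9.88e-06) and by 0.31 ± 0.07 with BPA (adjusted p = 0.0179). The BPA call was lost within set A alone, against the other dosed libraries and without replicate 1, 3 or 4. SLC7A11, the cystine importer that feeds glutathione synthesis, had 35.9, 31.7, 34.4 and 22 CPM against 13.2 to 23.9 CPM (median 19). It rose by 0.75 ± 0.15 with BPF (adjusted p = 0.00211), and replicate 4 alone lay inside the control range. That call was lost in DESeq2, within set B alone and without replicate 1 or 3.

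GCLC, the catalytic subunit of glutathione synthesis, had 233, 241, 209 and 195 CPM against 118 to 203 CPM (median 174) and rose by 0.35 ± 0.07 (adjusted p = 0.00211), a call lost within set B alone. Its partner subunit GCLM had 118, 122, 139 and 138 CPM, all above the control range of 85.9 to 117 CPM (median 104), with a difference of 0.31 ± 0.08 that missed the threshold (adjusted p = 0.0837) and was called within set B alone. FTL, the ferritin light chain that stores iron, had 1929, 2113, 1613 and 1604 CPM against 1283 to 1799.8 CPM (median 1441) and rose by 0.29 ± 0.05 (adjusted p = 2.29e-04). SQSTM1, an autophagy receptor, rose by 0.23 ± 0.05 (adjusted p = 0.0114), a call lost within either set alone and without replicate 1 or 3. TRIM16L rose by 0.63 ± 0.09 (adjusted p = 7.83e-06; not called within set B alone), and its reads can be shared with its near-identical relative TRIM16.

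Of the 23 NRF2 targets tested, 6 were called higher at 25 µM BPF (AKR1C1, FTL, GCLC, NQO1, SLC7A11 and TXNRD1) and 0 lower, beside 0.126% of all genes. The list had 21 members above 0 and a median log2 difference of 0.15, against a median of -0.01 over all genes. With the other dosed libraries as reference, 10 were called higher, AKR1C2, AKR1C3 and TKT among them, beside 0.179% of all genes, with a list median of 0.29 against 0.03. In the parabens, whose lower doses are part of this reference, the difference from control was below 0 within both sets in 6 of 8 groups for AKR1C2, 6 of 8 for AKR1C3 and 8 of 8 for TKT. For BPA at 25 µM 1 was called higher (TXNRD1) and 1 lower (AKR1C2), beside 0.0762% of all genes, with a median of 0.04 against -0.02. For BPS 0 were called against the controls, beside 0.0224% of all genes, with a median of 0.04 against -0.02. Against the other dosed libraries 2 were called higher (AKR1C1 and AKR1C3), beside 0.0897% of all genes. There 17 of 23 lay above 0, with a median of 0.06 against 0.03. HMOX1, heme oxygenase, had 6.88, 7.62, 8.93 and 5.05 CPM at 25 µM BPF against 2.75 to 9.06 CPM (median 6.29), and SRXN1, sulfiredoxin, had 10.00, 8.54, 7.46 and 4.72 CPM against 2.61 to 17 CPM (median 9.07). Both are common NRF2 targets, both ranges overlapped, and neither was called for any bisphenol at 25 µM.

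AKR1C1, a ketosteroid reductase, showed how far the sets differ. At 25 µM BPF it had 104, 93.6, 40.5 and 44.2 CPM, while the controls spanned 20.4 to 103 CPM, and replicates 1 and 2 were far above 3 and 4. Within sets the differences were 0.48 (A) and 0.42 (B), and the joint one was 0.45 ± 0.11 (adjusted p = 0.0465). That call was lost in DESeq2, with RLE scaling, within set B, without replicate 1, 2 or 4 and without any of controls 19, 20, 22, 23, 26, 27, 30 and 31. Against the other dosed libraries it was 0.91 ± 0.11 for BPF (adjusted p = 1.81e-10), 0.71 ± 0.11 for BPS (adjusted p = 2.85e-05) and 0.40 ± 0.12 for BPA (adjusted p = 0.238). At low doses these genes were mostly below control. AKR1C1 was below 0 within both sets in 9 of 12 bisphenol groups and 7 of 8 paraben groups. AKR1C2 was called lower at 0.025 and 0.25 µM BPF, and AKR1C1, AKR1C2 and AKR1C3 at 0.025 µM BPS. With BPA, AKR1C1 was called lower at 0.025 µM, AKR1C2 at 0.25 µM and both at 2.5 µM. Reads of AKR1C1, AKR1C2 and AKR1C3 can be shared between these near-identical genes.

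The promoter of TXNRD1, called for BPF and BPA, and that of STRA6, called for BPF, were the windows of genes called higher at 25 µM BPF that held the antioxidant response element searched for, TGACNNNGC on either strand. The 250 bases before each start are shown to place these letters (RefSeq, GRCh38.p14; capitals mark the match).
TXNRD1 (chr12:104215529-104215778, plus strand): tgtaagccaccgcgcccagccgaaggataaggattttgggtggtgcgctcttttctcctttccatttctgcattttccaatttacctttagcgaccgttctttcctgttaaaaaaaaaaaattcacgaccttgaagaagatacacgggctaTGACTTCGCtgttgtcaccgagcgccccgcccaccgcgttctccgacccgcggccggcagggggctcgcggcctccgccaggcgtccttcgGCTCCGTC
STRA6 (chr15:74212260-74212509, minus strand): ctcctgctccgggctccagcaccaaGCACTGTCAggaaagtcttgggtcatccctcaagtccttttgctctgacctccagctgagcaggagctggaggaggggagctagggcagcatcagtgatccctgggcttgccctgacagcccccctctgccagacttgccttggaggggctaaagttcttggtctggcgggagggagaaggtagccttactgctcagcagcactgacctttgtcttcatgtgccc
The TXNRD1 matches began at -99 and -8 from the start, the latter running past the bases shown, and the STRA6 match at -225. Over the window from 250 bases before to 50 after the start, 2 of the 13 genes called higher at 25 µM BPF with a window held the motif (15.4%), as did 2 of 4 at 25 µM BPA (50%), 4 of the 16 NRF2 targets with one (25%; GCLM, ME1, PGD and TXNRD1) and 1790 of the 12138 windows of genes tested (14.7%). The share at 25 µM BPF was near that of all windows.

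STRA6, the receptor for retinol-binding protein, had 46.7, 77.8, 39.8 and 31.1 CPM at 25 µM BPF against 14.7 to 57.6 CPM (median 36.6) in the controls, and it rose by 0.52 ± 0.13 (adjusted p = 0.0465). That call was lost in DESeq2, with RLE scaling, within either set alone, without replicate 2 or 3 and without any of controls 19, 20, 21, 24, 26, 27, 28, 30 and 31, and it held against the other dosed libraries (adjusted p = 0.00286). THBD, thrombomodulin, had 71.1, 66.9, 55.8 and 58.3 CPM against 24.2 to 57 CPM (median 37.6). It rose by 0.69 ± 0.11 (adjusted p = 1.18e-05), and by 0.75 and 0.59 within sets A and B, where set B alone gave no call. The difference of THBD from control was above 0 within both sets in 12 of 12 bisphenol groups and 7 of 8 paraben groups. DHRS3, another retinoid gene that reduces retinal, was also called at 25 µM BPF, at 0.26 ± 0.06 (adjusted p = 0.0408), a call lost in DESeq2, with RLE scaling, within set B, without any 1 of the 4 libraries, without any of controls 19 and 21 to 24 and against the other dosed libraries.

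**Figure D2:**
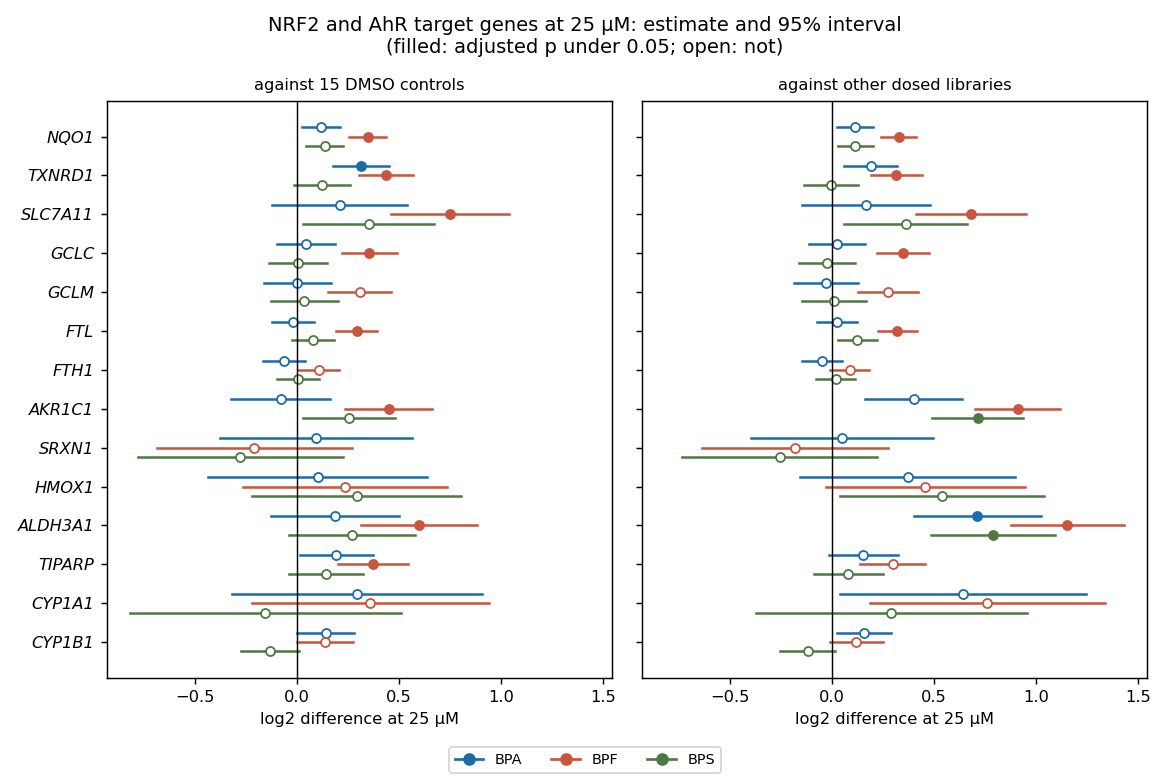
Log2 difference at 25 µM (x axis) with its 95% interval for 14 NRF2 and AhR target genes in BPA, BPF and BPS, against the 15 DMSO controls (left) and other dosed libraries (right); filled points passed an adjusted p of 0.05. On the left, 8 of the filled points belong to BPF and 1, TXNRD1, to BPA.

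AhR targets gave a related picture. ALDH3A1, an aldehyde dehydrogenase induced by AhR ligands, had 81.6, 74, 35.7 and 41.5 CPM at 25 µM BPF against 22.9 to 58.9 CPM (median 39.4) in the controls. Replicates 1 and 2 lay above every control and replicates 3 and 4 inside their range. The difference was 0.60 ± 0.14 (adjusted p = 0.0465), with 0.84 in set A and 0.21 in set B. The call was lost in DESeq2, with RLE scaling, within set B, without replicate 1 or 2 and without any of controls 19, 21, 22, 24, 29, 30 and 31. Against the other dosed libraries ALDH3A1 was called for all 3 compounds at 25 µM. The differences there were 0.71 ± 0.16 for BPA (adjusted p = 0.0275), 1.16 ± 0.14 for BPF (adjusted p = 1.23e-09) and 0.79 ± 0.15 for BPS (adjusted p = 0.00302). Its difference from control was below 0 within both sets in 7 of 12 bisphenol groups and 6 of 8 paraben groups. At 0.025 µM BPA it was called lower. Groups at such low doses make up this reference.

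TIPARP, an AhR-induced repressor of AhR, had 95.6, 92.1, 107 and 96.6 CPM at 25 µM BPF against 64.5 to 93.1 CPM (median 74.2) and rose by 0.37 ± 0.09 (adjusted p = 0.03). Leaving out any 1 of the 4 BPF libraries, control 21 or control 26 ended that call, as did either set alone and the other dosed libraries as reference. CYP1A1, the monooxygenase most used as an AhR readout, had 5.85, 7.81, 7.38 and 5.05 CPM at 25 µM BPF and 7.89, 3.42, 6.24 and 6.49 CPM at 25 µM BPA, all inside the control range of 1.66 to 13.4 CPM (median 4.96). CYP1B1, which hydroxylates estradiol, had intervals of 0.00 to 0.28 (BPA), -0.00099 to 0.27 (BPF) and -0.28 to 0.01 (BPS). Of 6 AhR targets tested, 3 were called higher at 25 µM BPF (ALDH3A1, NQO1 and TIPARP; median 0.35), beside 0.126% of all genes and a median of -0.01 over them, and NQO1 is on the NRF2 list as well. For BPA and BPS at 25 µM 0 were called against the controls, beside 0.0762% and 0.0224% of all genes.

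The genes called lower at 25 µM BPF included a mucin and inflammatory genes. MUC1, a membrane mucin, had 5.74, 8.73, 7.74 and 8.61 CPM at 25 µM BPF against 8.09 to 26.6 CPM (median 17.6). It fell, with a difference of -1.25 ± 0.23 (log2, SE; adjusted p = 9.63e-04), with -1.55 in set A and -0.74 in set B. The call was lost within set B, without replicate 1 and against the other dosed libraries (adjusted p = 0.0688). MUC1 was called lower at 2.5 µM BPA as well (-0.79 ± 0.21, adjusted p = 0.0405), a call lost without any 1 of the 4 libraries, in DESeq2, within either set, against the other dosed libraries and without any of controls 17, 18, 20, 21, 23, 24, 28 and 29. Of the 9 mucin and luminal genes, 1 was called at 25 µM BPF (beside 0.126% of all genes) and 8 lay below 0, with a median of -0.70 against -0.01 over all genes. BPA at 25 µM had 9 of 9 below 0 (median -0.46) and BPS 8 of 9 (-0.31), with 0 called, beside 0.0762% and 0.0224% of all genes. Against the other dosed libraries the BPF median was -0.07, with 6 of 9 below 0.

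SAA1, an acute phase protein (chr11:18266264-18269967), had 301, 319, 752 and 806 CPM at 25 µM BPF, 628, 667, 585 and 617 CPM at 25 µM BPA and 333, 641, 710.2 and 615 CPM at 25 µM BPS, against 586 to 1375 CPM (median 859) in the controls. BPF replicates 1 and 2 were below every control, and replicates 3 and 4 were inside the control range. Against the controls SAA1 was called for BPF alone (-0.72 ± 0.15, adjusted p = 0.00672), and the call was lost in DESeq2, within set B and without replicate 1 or 2. Against the other dosed libraries it was called for all 3, at -0.78 ± 0.14 for BPA (adjusted p = 0.00164), -1.03 ± 0.14 for BPF (adjusted p = 1.92e-07) and -0.80 ± 0.14 for BPS (adjusted p = 3.48e-04). Reads of SAA1 and SAA2 can be shared.

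The sets of the BPF libraries at 25 µM disagreed on these genes. The test of set A against set B called 18 genes (0.0807% of the genes tested), 17 of them lower in set A. CXCL1, a neutrophil chemokine, had 351, 370.3, 834 and 776 CPM, against 388 to 1002 CPM (median 758) in the controls, a log2 difference of -1.21 in set A and 0.32 in set B. CXCL8 differed by -0.68 and 0.78, CSF3 by -0.43 and 0.70 and the mitochondrial superoxide dismutase SOD2 by -1.07 and -0.13. CXCL2, CXCL3, SAA1, SAA2, C3, NFKBIZ, BIRC3 and ZC3H12A were among the others, and the amino acid transporter SLC7A5 was the 1 gene higher in set A. The NRF2 targets NQO1, TXNRD1, GCLC and FTL were not among the 18. The same test called 3 genes for BPA at 25 µM (0.0135%; NEDD8, SNRPD2 and GSTP1) and 0 for BPS at 25 µM (0%; in edgeR 1093 had an unadjusted p under 0.05, DESeq2 not run). At lower doses it called 31 genes for BPS at 0.25 µM (all higher in set A; 0.139%), 12 for BPS at 0.025 µM (0.0538%), 2 each for BPS at 2.5 µM and BPF at 0.025 µM (0.00897%), 1 for BPA at 0.25 µM (0.00448%) and 0 for BPA at 0.025 and 2.5 µM and BPF at 0.25 and 2.5 µM (0%; 914, 926, 953 and 840 at an unadjusted p under that level). Of the genes called in each set alone, 10 were shared at 25 µM BPF and 5 of these had the same direction, and 9 of 17 did at 0.25 µM BPS. Of the 19 acute phase and cytokine genes, 1 was called at 25 µM BPF against the controls (beside 0.126% of all genes) and 6 against the other dosed libraries (beside 0.179%; C3, CXCL1, CXCL2, S100A9, SAA1 and SAA2, all lower; median -0.61 against 0.03 over all genes). At low doses calls on this list went the other way against the controls. At 0.025 µM BPS 4 were higher (CSF3, CXCL1, CXCL8 and IL1B; median 0.52, beside 0.462% of all genes called), at 0.025 µM BPA 2 (CSF3 and CXCL1; median 0.42, beside 0.426%), and at 0.25 µM BPA and BPS 1 each (CSF3, beside 0.426% and 0.0538%). These low-dose groups are part of the reference of other dosed libraries for BPF.

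**Figure D3:**
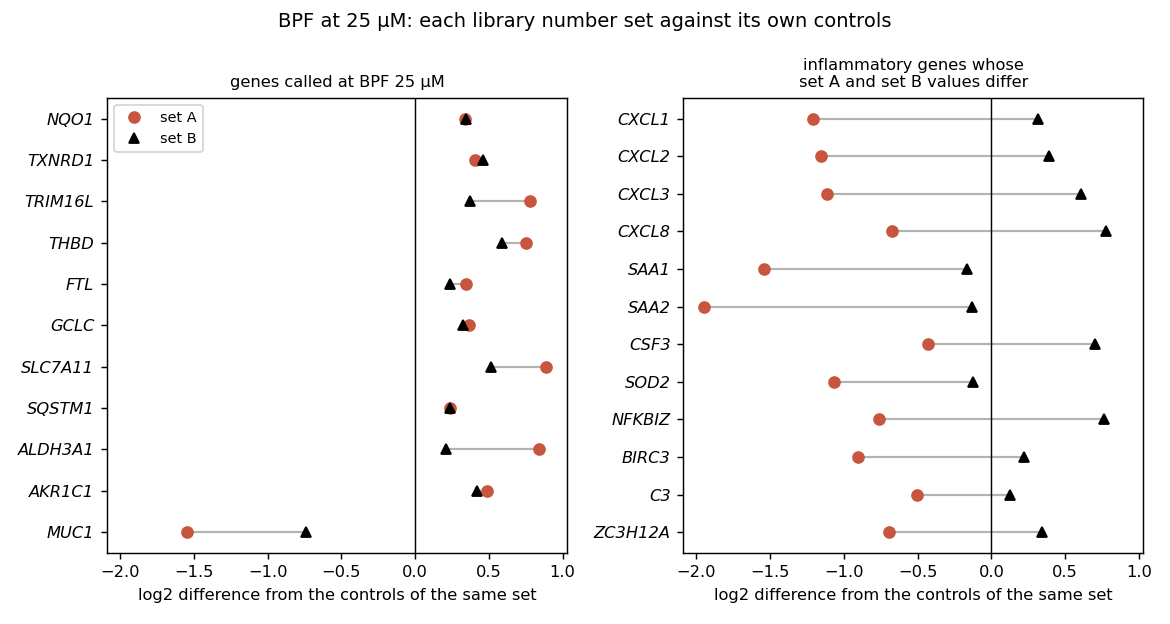
Log2 difference of BPF at 25 µM from the controls of the same number set (x axis), set A (circles) and set B (triangles), for 11 genes called at this dose (left) and 12 inflammatory genes of the 18 whose set values differed by test (right). NQO1, TXNRD1 and GCLC have nearly the same value in both sets, while CXCL1, CXCL2 and CXCL8 lie below 0 in set A and above 0 in set B.

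The smallest p at 25 µM BPS belonged to TIMP1 (chrX:47582436-47586789), a secreted inhibitor of matrix metalloproteinases. Its values were 3725, 3043, 2961 and 2436 CPM, against 1791 to 2939 CPM (median 2079.9) in the controls. Replicate 4 alone lay inside the control range. TIMP1 rose by 0.48 ± 0.07 (log2, SE; adjusted p = 1.30e-06), by 0.48 in set A and 0.47 in set B, and by 0.37 ± 0.06 against the other dosed libraries (adjusted p = 3.32e-04). BPF at 25 µM gave 3168, 2748, 2498 and 2659 CPM and 0.36 ± 0.07 (adjusted p = 0.00211), a call lost in DESeq2, without replicate 4 and against the other dosed libraries. BPA gave 2888, 3359.6, 1902 and 1922 CPM, with replicate 2 alone above the control range, and no call.

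GGT5, a gamma-glutamyl transferase that cleaves glutathione conjugates, had 37.9, 39.6, 29.3 and 34.9 CPM at 25 µM BPS against 41.5 to 87 CPM (median 60.5), below every control. It fell, with a difference of -0.77 ± 0.13 with BPS (adjusted p = 2.88e-04; not called within set B alone), and -0.57 ± 0.12 with BPF at the same dose (adjusted p = 0.0115). The BPF call was lost without any 1 of its 4 libraries, within set B and against the other dosed libraries. FN1, fibronectin, had 197, 186, 245 and 153 CPM at 25 µM BPS against 108 to 160.3 CPM (median 141), and ACSS2, acetyl-CoA synthetase, had 56.5, 61, 59.3 and 61.5 CPM against 63.8 to 103 CPM (median 82.2). They differed by 0.50 ± 0.11 (adjusted p = 0.0414) and -0.47 ± 0.10 (adjusted p = 0.0191), and neither was called against the other dosed libraries. FN1 also lost its call in DESeq2, with RLE scaling, without replicate 1 or 3 and without any of controls 17, 18, 19, 21, 23, 24, 26, 27 and 31, and ACSS2 without replicate 1 or 2 and within set B. The fifth called gene was GNAS (0.39 ± 0.09, adjusted p = 0.0414), whose sign turned against the other dosed libraries (-0.13 ± 0.08). Its call was also lost in DESeq2, with RLE scaling, without replicate 2, 3 or 4 and without any of controls 17, 18, 19, 24, 26, 27 and 32.

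BPA at 25 µM had 4 genes called under both references. CD24, a surface glycoprotein, had 97.6, 90.9, 160.4 and 139 CPM against 69 to 112 CPM (median 86) in the controls and rose by 0.48 ± 0.09 (adjusted p = 0.00715). ID3, an inhibitor of helix-loop-helix factors, had 231, 211, 229 and 205 CPM against 134 to 232 CPM (median 163) and rose by 0.41 ± 0.08 (adjusted p = 0.0108). TUBA1A, an alpha tubulin, rose by 0.52 ± 0.11 (adjusted p = 0.0161). DUSP23, a small phosphatase, had 169.5, 167, 117 and 125 CPM against 141 to 252 CPM (median 198) and fell, with a difference of -0.47 ± 0.08 (adjusted p = 9.25e-04). ID3 and TUBA1A lost their calls in DESeq2, and ID3 without replicate 1. All 4 calls were lost without replicate 3 and within set A alone, where CD24 differed by 0.28 against 0.68 in set B. TXNIP, an inhibitor of thioredoxin, differed by -0.68 ± 0.12 against the controls (adjusted p = 9.25e-04) and by -0.23 ± 0.12 against the other dosed libraries (adjusted p = 0.666), and its call was also lost within set B and without replicate 1.

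At 2.5 µM BPA, 8 of 23 sterol synthesis genes were called lower, beside 0.964% of all genes called. FDPS (chr1:155308866-155320665), farnesyl diphosphate synthase, had 317, 321, 260.5 and 300.4 CPM at 2.5 µM BPA and 354, 348, 300.4 and 306 CPM at 25 µM BPA, against 375 to 428 CPM (median 402) in the controls. All 8 of these libraries lay below every control. FDPS fell, with a difference of -0.42 ± 0.06 at 2.5 µM (adjusted p = 2.32e-06) and -0.30 ± 0.06 at 25 µM (adjusted p = 0.00893). Against the other dosed libraries the 2.5 µM call held (-0.25 ± 0.06, adjusted p = 0.0428) and the 25 µM call did not (adjusted p = 0.578). The latter was also lost within set A and without BPA replicate 3 or 4. HMGCS1, which makes the precursor of mevalonate, had 124, 133, 104 and 98.7 CPM at 2.5 µM BPA against 131 to 179.5 CPM (median 166) and fell, with a difference of -0.48 ± 0.08 (adjusted p = 3.66e-05), a call lost within set A and against the other dosed libraries.

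Of the 23 sterol synthesis genes tested, 8 were called lower at 2.5 µM BPA (FDFT1, FDPS, HMGCS1, LSS, MSMO1, MVD, SQLE and TM7SF2) and 0 higher, beside 0.964% of all genes. The list had 20 members below 0 and a median of -0.23, against -0.02 over all genes. At 25 µM BPA 2 were called lower (FDPS and HMGCS1; median -0.15), beside 0.0762% of all genes. BPS at 2.5 µM had 1 called lower (DHCR7, beside 0.0135% of all genes) and a list median of -0.18, with 21 members below 0. Calls at lower doses were TM7SF2 at 0.025 µM BPA and FDFT1 at 0.25 µM BPA, both lower (beside 0.426% of all genes each). At 0.025 µM BPS, FDPS and TM7SF2 were called lower (beside 0.462%). BPF had none called at 2.5 or 25 µM, beside 0.112% and 0.126% of all genes. With the other dosed libraries as reference, FDPS alone was called at 2.5 µM BPA (beside 0.103% of all genes), with a list median of -0.13 against 0.03 over all genes. The difference of FDPS from control was below 0 within both sets in 11 of 12 bisphenol groups and 7 of 8 paraben groups. For TM7SF2 this held in 11 of 12 and 8 of 8, and for HMGCS1 in 12 of 12 and 5 of 8.

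**Figure D4:**
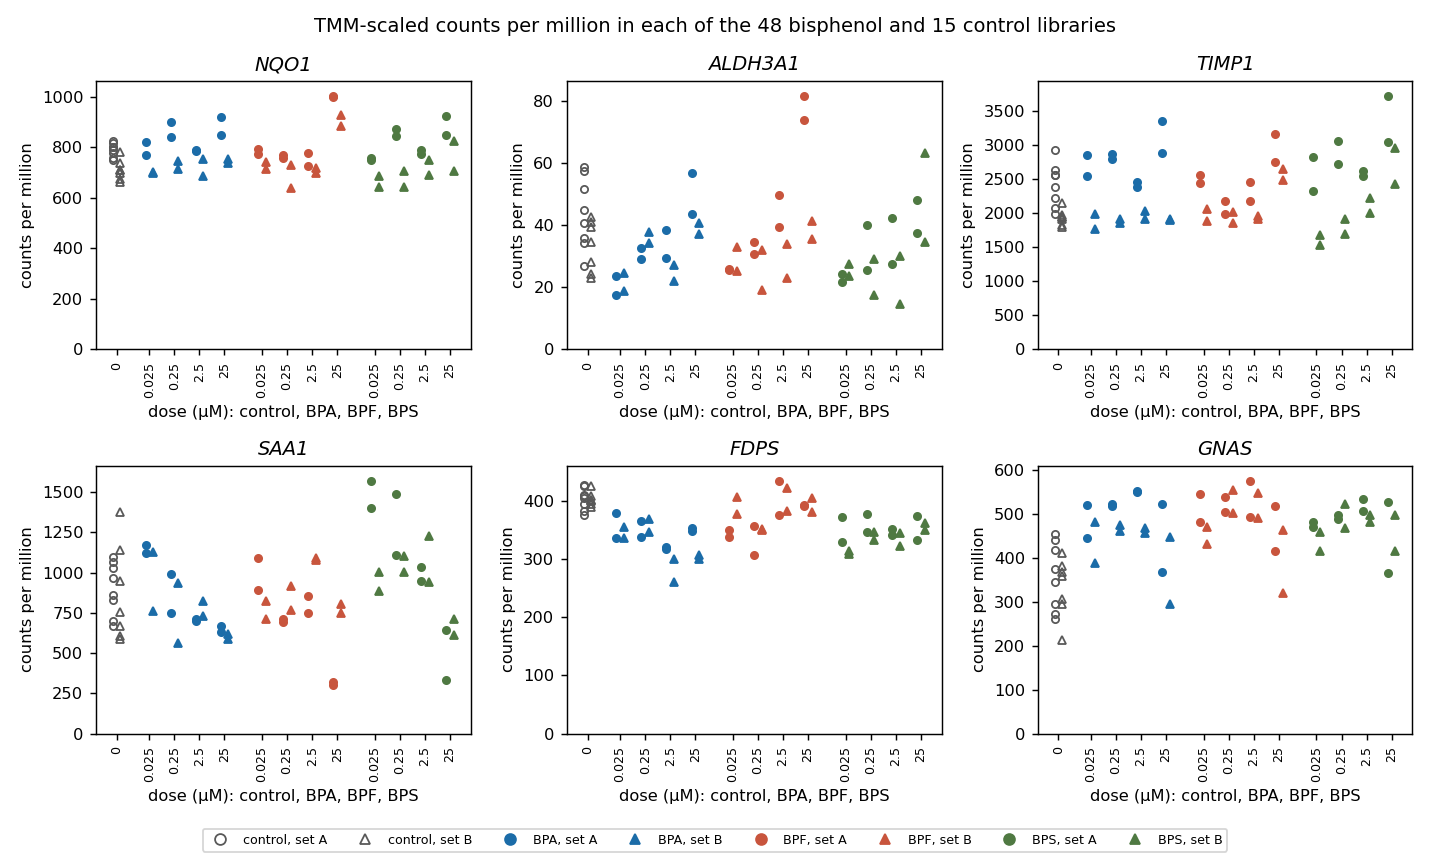
TMM-scaled CPM (y axis, from 0) of NQO1, ALDH3A1, TIMP1, SAA1, FDPS and GNAS in every control and bisphenol library by dose (x axis), with circles for set A and triangles for set B. NQO1 stands above all controls in the 4 libraries of BPF at 25 µM, FDPS lies below all controls at 2.5 µM BPA, and GNAS lies in the upper part of the control range or above it in nearly every dosed group.

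Ribosomal protein genes made up 56 of the 180 lower calls of BPA at 2.5 µM. Of the 83 tested, 56 were lower at 2.5 µM BPA, 28 at 0.025 µM, 10 at 0.25 µM and 2 at 25 µM, and none higher, beside 0.964%, 0.426%, 0.426% and 0.0762% of all genes called. Their median log2 difference was -0.35 at 2.5 µM BPA, against -0.02 over all genes. BPS had 15 called lower at 0.025 µM (median -0.21), beside 0.462% of all genes. It had 0 at its other doses, beside 0.0538%, 0.0135% and 0.0224%. BPF had 0 at any dose, beside 0.0942%, 0.0448%, 0.112% and 0.126%. At such shares a count of 0 is no result about these genes. The BPF medians were -0.13, -0.22, -0.04 and -0.13 from 0.025 to 25 µM, beside -0.23 for BPA at 0.25 µM. These genes took 7.65% to 8.16% of all counts at 2.5 µM BPA and 8.16% to 9.94% in the controls, and the plate as a whole reached down to 6.78%. Mitochondrial genes moved with them, at 7.14% ± 0.34 (SD, n = 4) of counts at 2.5 µM BPA and 7.97% ± 0.48 (SD, n = 15) in the controls. Their part in the result was not tested. With the other dosed libraries as reference, 7 ribosomal protein genes were called at 2.5 µM BPA (median -0.24), beside 0.103% of all genes. The other 11 groups had 0, beside at most 0.179%. RPS27, a small-subunit protein, had 407, 368, 479 and 375 CPM at 2.5 µM BPA against 463 to 783 CPM (median 658) and differed by -0.63 ± 0.10 (adjusted p = 2.90e-05). Reads of ribosomal protein genes can be shared with their many processed copies.

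**Figure D5:**
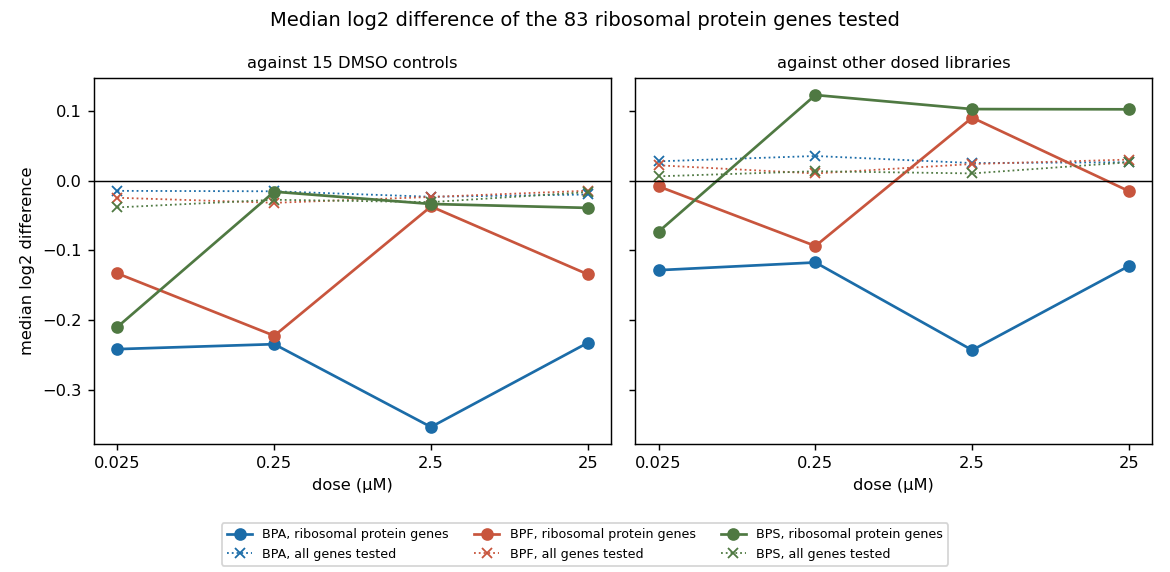
Median log2 difference (y axis) of the 83 ribosomal protein genes tested (solid lines, circles) and of all genes tested (dotted lines, crosses) by dose (x axis, µM) for BPA, BPF and BPS, against the 15 DMSO controls (left) and other dosed libraries (right). BPA lies lowest at 2.5 µM under both references, at -0.35 and -0.24.

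At the same dose of BPA, 2 of 5 metallothionein genes, which bind zinc and copper, were called lower under both references, beside 0.964% of all genes against the controls and 0.103% against the other dosed libraries. MT2A had 8994, 9197, 10861 and 8929 CPM at 2.5 µM BPA against 9701 to 15836 CPM (median 12314) in the controls and fell, with a difference of -0.40 ± 0.09 (adjusted p = 0.00866), with -0.42 ± 0.09 against the other dosed libraries (adjusted p = 0.0316). MT1E had 1003, 1068, 1247 and 1002 CPM against 1176 to 1802 CPM (median 1459) and fell, with a difference of -0.46 ± 0.10 (adjusted p = 0.0027). For both genes replicates 1, 2 and 4 lay below every control and replicate 3 inside their range. Both calls were lost in DESeq2 and without replicate 1 or 4, and that of MT2A without replicate 2. BPF and BPS at 2.5 µM had MT2A at 10513 to 17148 CPM and 11279 to 14305 CPM, with no call. Reads can be shared within the family.

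At matched doses the 3 compounds were then compared with each other, 12 pairs in all, with p-values adjusted over the genes of all pairs together. FDPS at 2.5 µM was the 1 gene called between BPA and BPF (0.00448%), at -0.42 (95% interval -0.57 to -0.27, adjusted p = 0.0346). The 4 BPA libraries lay below the 4 BPF libraries, whose values were 435, 376, 382 and 422 CPM. The call was lost without BPA replicate 1, 3 or 4, without BPF replicate 1, 2 or 4, within set A and without the set term. With the replicate number as a block the pair had 0 genes called, and the 4 same-numbered correlations of this pair were 0.118 to 0.196. Taken about the mean of each set, the correlation was 0.079 in set A and 0.0016 in set B. BPS lay between them, and BPA against BPS gave -0.17 (95% interval -0.33 to -0.02, adjusted p = 0.966) and BPF against BPS 0.24 (95% interval 0.10 to 0.39, adjusted p = 0.747).

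The other 11 pairs had 0 genes called in edgeR (0% each) and 0 in DESeq2. Genes at an unadjusted p under 0.05 numbered 841, 910 and 902 at 0.025 µM (BPA against BPF, BPA against BPS, BPF against BPS), 990, 1158 and 1205 at 0.25 µM, 1116 and 866 at 2.5 µM (BPA against BPS, BPF against BPS) and 936, 1184 and 881 at 25 µM, beside 1253 for the pair that had FDPS. With p adjusted within a pair alone, RPS29 was called in addition for BPA against BPF and for BPA against BPS at 2.5 µM. BPA against BPS at 2.5 µM had 3 genes without BPS replicate 4, and BPA against BPF and BPA against BPS at 25 µM had 1 each without BPA replicate 2. A count of 0 does not show that the compounds act alike.

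The intervals of the pairs show what could not be told apart. For NQO1 at 25 µM, BPA against BPF differed by -0.23 (95% interval -0.34 to -0.11, adjusted p = 0.485), BPF against BPS by 0.21 (95% interval 0.09 to 0.33, adjusted p = 0.59) and BPA against BPS by -0.02 (95% interval -0.14 to 0.10, adjusted p = 1). For GCLC at 25 µM, BPF stood above BPA and BPS by intervals that excluded 0 before adjustment: BPA against BPF gave -0.31 (95% interval -0.48 to -0.14, adjusted p = 0.636) and BPF against BPS 0.35 (95% interval 0.18 to 0.53, adjusted p = 0.485). For FTL, BPA against BPF gave -0.31 (95% interval -0.44 to -0.18, adjusted p = 0.258), and BPF against BPS 0.22 (95% interval 0.09 to 0.35, adjusted p = 0.723). For TIMP1, BPA against BPS gave -0.30 (95% interval -0.47 to -0.12, adjusted p = 0.703) and BPF against BPS -0.13 (95% interval -0.30 to 0.05, adjusted p = 0.966). For ALDH3A1 the intervals were wide, with -0.41 (95% interval -0.78 to -0.05, adjusted p = 0.966) for BPA against BPF and 0.33 (95% interval -0.03 to 0.69, adjusted p = 0.966) for BPF against BPS. SAA1 differed by -0.09 (95% interval -0.45 to 0.26, adjusted p = 1) between BPF and BPS. Genes called for BPF and not for BPA or BPS at 25 µM, such as NQO1, GCLC and FTL, were not called between the compounds.

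Dose trends, a linear contrast over the 4 doses of a compound without the controls, gave 0 genes for BPA (0%; in edgeR 1139 had an unadjusted p under 0.05, and DESeq2 called 0), 9 for BPF (0.0404%) and 12 for BPS (0.0538%). The 9 BPF genes all had slopes above 0, which need not mean a rise at every step of dose. Of them, 4 (NQO1, FTL, AKR1C1 and AKR1C3) are on the NRF2 list. The slopes of AKR1C1 and AKR1C3 start from levels below control (-0.49 ± 0.13 and -0.40 ± 0.10 at 0.025 µM), AKR1C3 lying below 0 within both sets in 10 of 12 bisphenol groups. Per 10-fold dose, the fitted log2 slope of NQO1 was 0.10 (95% interval 0.06 to 0.14, adjusted p = 9.19e-04) and that of FTL 0.12 (95% interval 0.08 to 0.16, adjusted p = 4.81e-04). For AKR1C1 it was 0.29 (95% interval 0.20 to 0.39, adjusted p = 1.95e-04), for AKR1C3 0.18 (95% interval 0.11 to 0.26, adjusted p = 0.0147) and for SQSTM1 0.10 (95% interval 0.06 to 0.14, adjusted p = 0.00908). ALDH3A1 had 0.35 (95% interval 0.23 to 0.48, adjusted p = 8.86e-04), TRIM16L 0.22 (95% interval 0.14 to 0.30, adjusted p = 8.86e-04), STRA6 0.24 (95% interval 0.14 to 0.34, adjusted p = 0.0248) and the membrane protein gene TMEM63C 0.58 (95% interval 0.35 to 0.81, adjusted p = 0.00731). The difference of ALDH3A1 from control was below 0 within both sets in 7 of 12 bisphenol groups. The NQO1 libraries of BPF held 793, 773, 716 and 742 CPM at 0.025 µM, 758, 771, 640.3 and 728 CPM at 0.25 µM and 725, 778, 717 and 698 CPM at 2.5 µM, all below the 25 µM values. The ranges of these lower doses overlapped, so the NQO1 slope rests on the 25 µM libraries and does not show a steady rise. The NQO1 slope was not called within either set alone, and leaving out BPF replicate 4 at 25 µM gave 14 genes.

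The 12 BPS genes split into 6 that rose and 6 that fell with dose. TIMP1 rose by 0.17 (95% interval 0.12 to 0.23, adjusted p = 1.02e-04) per 10-fold dose and AKR1C1 by 0.28 (95% interval 0.17 to 0.38, adjusted p = 0.00317). The Wnt inhibitor DKK1 rose by 0.14 (95% interval 0.08 to 0.20, adjusted p = 0.0282), the hair keratin KRT81 by 0.08 (95% interval 0.05 to 0.12, adjusted p = 0.0134), S100A13 by 0.21 (95% interval 0.12 to 0.31, adjusted p = 0.0365) and S100A16 by 0.10 (95% interval 0.06 to 0.14, adjusted p = 0.0262). The difference from control was below 0 within both sets in 9 of 12 bisphenol groups for AKR1C1 and S100A16. It was so in 8 for S100A13, 7 for DKK1, 2 for KRT81 and 1 for TIMP1. AKR1C1 was called lower at 0.025 µM BPS. SAA1 fell, with a slope of -0.34 (95% interval -0.45 to -0.23, adjusted p = 1.02e-04), as did SAA2, with -0.39 (95% interval -0.55 to -0.23, adjusted p = 0.0177). GGT5 changed by -0.24 (95% interval -0.34 to -0.14, adjusted p = 0.026), the RNase ZC3H12A, which degrades cytokine messages, by -0.25 (95% interval -0.34 to -0.15, adjusted p = 0.00572) and the NF-kB brake TNIP1 by -0.15 (95% interval -0.22 to -0.09, adjusted p = 0.0262). Of the 12 bisphenol groups, 8 lay above control within both sets for TNIP1, 6 for ZC3H12A, 5 for SAA2, 4 for SAA1 and 1 for GGT5. Below control within both sets lay 2, 2, 3, 6 and 6 in the same order. The SAA1 libraries of BPS held 1571, 1400.4, 1004 and 886 CPM at 0.025 µM and 1111, 1489, 1005 and 1105 CPM at 0.25 µM, above the 25 µM values given earlier. Replicates 1 and 2 at 0.025 µM and replicate 2 at 0.25 µM lay above every control. The count was 4 and 7 without BPS replicates 2 and 3 at 0.025 µM, 20 without replicate 4 at 2.5 µM and 3 and 6 without replicates 1 and 2 at 25 µM.

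The same slopes in BPA were not called, but several had intervals on 1 side of 0. ALDH3A1 had 0.30 (95% interval 0.16 to 0.44, adjusted p = 0.203) per 10-fold dose of BPA and 0.29 (95% interval 0.15 to 0.43, adjusted p = 0.09) of BPS, beside the called slope of BPF. SAA1 had -0.24 (95% interval -0.35 to -0.13, adjusted p = 0.203) in BPA and -0.18 (95% interval -0.29 to -0.07, adjusted p = 0.737) in BPF, beside the called slope of BPS. NQO1 had 0.03 (95% interval -0.01 to 0.07, adjusted p = 0.989) in BPA and 0.06 (95% interval 0.03 to 0.10, adjusted p = 0.321) in BPS. Whether the slopes differ between the compounds was not tested.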

How the data were processed

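The deposited files hold 1 whole-number read count per gene symbol and library (34718 symbols). The submitters' processing notes name FastQC, MultiQC, STAR, featureCounts and the build GRCh38. Not given in the sources used here: versions, annotation, strand setting and gene filters. The deposited counts carry no mention of molecular identifiers, so reads copied by PCR are counted again.

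All 93 libraries of the plate were fitted together in edgeR 4.0.16 (R 4.3.3, limma 3.58.1) with TMM scaling, genes kept by filterByExpr (minimum count 10, minimum total 15; 22301 genes), a group term and a number set term, and the quasi-likelihood F-test. Adjustment was by Benjamini and Hochberg, per comparison for the 12 comparisons with control and over all 12 pairs together for the pairs. Called means an adjusted p under 0.05, log2 differences carry their SE, and intervals are 95% intervals. CPM were scaled by TMM. Totals of 7.33 to 18.9 M counts set the precision, so genes of a few CPM rest on few reads. The code was tested on simulated counts.

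Named were the called genes by smallest p, at most 25 at 25 µM, 15 at a lower dose and 10 per pair or trend, and a list of receptor, AhR, NRF2, mucin, acute phase and growth genes. Others were picked out after their values were seen, as were the reference of other dosed libraries and all genes of the trends beyond 10. The members and gene lists were chosen with earlier results of these data known. Alternatives were DESeq2 1.42.0, RLE scaling, no filter, no set term, each set alone, the bisphenols and controls alone, a replicate block and each library left out. Promoter windows and gene positions came from RefSeq (GRCh38.p14), matched by symbol. The labels give dosed libraries replicate numbers 1 to 4 without saying what they share. Deviations of same-numbered libraries from their group means correlated at -0.082 to 0.239, with all 4 over 0.1 in 5 of the 12 pairs, BPA with BPF at 2.5 µM among them. These deviations include the shift between the number sets. About the mean of each set the correlations were -0.130 to 0.152. Single genes of the counts given are not reported here.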

Additional observations from a re-analysis of the deposited data

Results flagged for a closer look

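In 9 named genes 1 of the 4 libraries of a dose lay far from the other 3, out of 184 groups of 4 tested, and chance alone puts about 1 in 20 groups past this limit. In BPA at 0.025 µM, replicate 1 had ETNK2, a kinase of phospholipid synthesis, at 86.4 CPM against 50.9 to 52.8 in the others. In BPA at 0.25 µM, replicate 1 had IGFL2-AS1 at 3.60 CPM against 1.64 to 1.82 and the signalling kinase IRAK1 at 207 CPM against 261 to 271. In BPA at 2.5 µM, replicate 2 had S100A10 at 588 CPM against 642 to 648, and replicate 3 had the ribosomal gene RPS25 at 651 CPM against 565 to 571 and MT2A at 10861 CPM against 8929 to 9197. In BPF, GATAD2A was at 103 CPM in replicate 1 at 0.025 µM against 77.3 to 80.2, the endocytic adaptor EPN1 at 122 CPM in replicate 2 at 2.5 µM against 149 to 152, and the ephrin EFNA1 at 98.1 CPM in replicate 4 at 25 µM against 89.4 to 90.1.

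In 4 named genes the effect differed between the number sets by the test of that difference, given as set A minus set B with edgeR's adjusted p. These were SYT8 at 0.25 µM BPA (-1.13, adjusted p = 0.0244), SAA1 at 25 µM BPF (-1.38, adjusted p = 3.71e-06), SOD2 at 25 µM BPF (-0.95, adjusted p = 0.0114) and the cytokine CSF3 at 0.025 µM BPS (0.80, adjusted p = 0.02). The cause was not tested.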

How the results depend on the processing

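Of the 194 named gene results, 194 kept their call without the filter, 194 with the bisphenols and controls alone, 183 with RLE scaling, 115 in DESeq2, 72 without the set term, 147 in set A alone and 102 in set B alone (1 gained one there). Against the other dosed libraries 32 of 172 did, and GNAS turned sign in 4, at -0.0072 (BPA 0.25 µM), -0.0255 (BPF 0.025 µM), -0.0109 (BPS 0.25 µM) and -0.13 (BPS 25 µM). The cause was not tested.

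Counts against control that moved by over 1.5 times are given from 0.025 to 25 µM, leaving out those that did not. DESeq2 gave 22, 18 and 126 for BPA and 3, 6 and 5 for BPF. No filter gave 217, 238 and 131 (25 µM) for BPA, 46, 167, 42 and 80 for BPF and 218, 45, 11 and 30 for BPS. No set term gave 29, 10, 135 and 1 for BPA, 8, 1, 11 and 4 for BPF and 1, 4, 1 and 0 for BPS. Set A alone gave 146 (0.25 µM) and 5 (25 µM) for BPA, 116, 206 and 84 (25 µM) for BPF and 42, 5 and 33 for BPS from 0.25 µM. Set B alone gave 154 (0.025 µM) and 288 (25 µM) for BPA, 9 and 20 for BPF and 269, 86, 36 and 29 for BPS. The bisphenols and controls alone gave 29 (BPA) and 10 (BPS) at 25 µM, and RLE scaling 3 for BPS at 25 µM. The other dosed libraries gave 0, 0 and 23 for BPA, 0, 1 and 5 for BPF and 0, 0, 0 and 20 for BPS. Leaving out 1 library gave 20 to 115, 3 to 130, 90 to 243 and 2 to 122 for BPA, 1 to 22, 1 to 23, 1 to 39 and 8 to 31 for BPF, and 3 to 129, 2 to 12, 1 to 3 and 3 to 12 for BPS.

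For the pairs (BPA with BPF, BPA with BPS, BPF with BPS), no filter gave 22, 12 and 7 at 0.025 µM, 6, 31 and 25 at 0.25 µM, 91, 90 and 4 at 2.5 µM and 10, 28 and 4 at 25 µM. Set A alone gave 17 and 16 (the BPS pairs) at 0.025 µM, 13, 86 and 145 at 0.25 µM, 18, 78 and 11 at 2.5 µM and 18, 11 and 27 at 25 µM. Set B alone gave 65, 3 and 82, then 1, 11 and 6, then 85, 17 and 13, then 34, 76 and 9. BPA with BPF at 2.5 µM had 0 without the set term and 2 with p adjusted over that pair alone, and BPA with BPS had 1 then. Leaving out 1 library gave 0 to 1 for BPA with BPF at 2.5 and 25 µM and BPA with BPS at 25 µM, 0 to 3 for BPA with BPS at 2.5 µM and 0 otherwise. For the trends, no filter gave 17 (BPA), 19 (BPF) and 48 (BPS), no set term 2 (BPF) and 1 (BPS), set A alone 20, 73 and 40, and set B alone 6 (BPA) and 89 (BPS). Leaving out 1 library gave 0, 6 to 14 and 3 to 20.

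With the replicate number as a block, BPA with BPF at 2.5 µM had 0 genes in place of 1, the other pairs had 0, and the trends had 0, 11 and 14.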
